A study of Xenopus tropicalis with 2 samples.

Results

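Genes of the Meis and Pbx family were followed across single cells of the tadpole tail before and 24 h after amputation. The members were chosen among genes whose deposited name begins with meis or pbx followed by a number, and 5 of the 14374 genes listed are described: *meis1* (Xetrov90013367m.g), *meis2* (Xetrov90021728m.g), *meis3* (Xetrov90021030m.g), *pbx2* (Xetrov90020898m.g) and *pbx3* (Xetrov90019975m.g). All 5 members had UMIs (unique molecular identifiers, each standing for 1 captured transcript) in cells of both libraries. Single cell RNA-Seq was performed on GFP+ cells sorted from tails of *pax6:GFP* transgenic *Xenopus tropicalis*, a line in which a *pax6* promoter drives GFP and which also carries RFP transgenes under *cryga* and *actc1* promoters. The posterior part of the tail was removed at NF stage 41, 3 days after fertilization. The uninjured group was the tail tips of such tadpoles, and the 24hpa group was the tissue regrown 24 h after amputation. Tails were pooled within a group and each group was 1 library, so amputation, an added day of age, the tissue taken and the library cannot be told apart in any comparison between the groups.

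Meis and Pbx proteins are transcription factors of the TALE class of homeodomain proteins, named for an extra loop of amino acids in the homeodomain. Meis and Pbx proteins bind each other and form complexes with Hox proteins on DNA, and through them help to set position along body and limb axes. In vertebrate limbs, *Meis1* and *Meis2* mark the proximal part and are raised by retinoic acid, and Meis, Pbx and Hox proteins also take part in patterning of the hindbrain and in motor neuron identity. The study predicted its regulatory circuit from binding motifs in regions of changed chromatin accessibility and from bulk RNA-Seq. It then narrowed the circuit by expression in these same cells, and followed *meis1* and *pbx3* by in situ hybridization and knockdown. Values of those genes in these cells are therefore not independent evidence of their direction.

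The uninjured library held 48622597 UMIs and 2617 cells (median depth 8289 UMIs), and the 24hpa library 32798976 UMIs and 1090 cells (median depth 10374.5 UMIs). The neural table of the authors held 780 uninjured and 295 24hpa cells. These fall into 8 clusters under the deposited Laevis names. The cells outside the neural table fall into 13 clusters under the deposited AK_Names, apart from 2 cells that these names place in neural clusters. Levels are given as CPM (the UMIs of a gene scaled to the summed UMIs of the cells compared) with 95% Poisson intervals in parentheses, and ratios as log2 of CPM at 24hpa over uninjured, so that 1 is a 2-fold higher level. All intervals cover counting error only and not the spread between animals or libraries. Those of CPM and of ratios take each UMI as independent, so they also leave out the spread between cells of a cluster. 1 cell barcode occurred in both libraries. Free RNA, estimated from barcodes with 1 to 100 UMIs, made up 9.42% of the UMIs of uninjured neural cells and 2.71% of those of 24hpa neural cells. Levels of different members are set side by side on the CPM scale because UMIs tag transcript ends, and how completely each end is annotated was not tested.

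The family was detected at a low level in many cells. Summed over the 5 members, neural cells held 282 CPM in the uninjured library (270 to 295) and 210 CPM at 24hpa (195 to 226). Cells outside the neural table held 104 CPM (99.7 to 109) and 65.3 CPM (61.0 to 69.9). Most neural cells thus carried only a few UMIs of the family. None of the 5 members was detected in 200 of 780 uninjured neural cells (25.6%) and in 66 of 295 24hpa neural cells (22.4%), and 4 members at once were detected in 11 and 4 cells. Median depth in the uninjured library was 6370.5 UMIs for cells with none and 15555 for cells with 4. The highest number in 1 cell was 21 UMIs of *meis3* in an uninjured differentiating neuron.

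The members differed in where they were expressed. Neural cells supplied 75.4% of the cellular *pbx3* UMIs of the uninjured library and 82.6% of those of *meis2*. They supplied 51.1% of *meis3*, 45.6% of *pbx2* and 39.4% of *meis1* UMIs. At 24hpa the neural shares were 78.7% for *pbx3*, 73.7% for *meis3*, 58.8% for *meis2*, 34.6% for *meis1* and 33.9% for *pbx2*. Neural cells were 780 of 2617 uninjured cells and 295 of 1090 24hpa cells. The shares were not scaled to the neural part of all UMIs, so a change between the libraries is not read as a change in level.

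**Figure D1:**
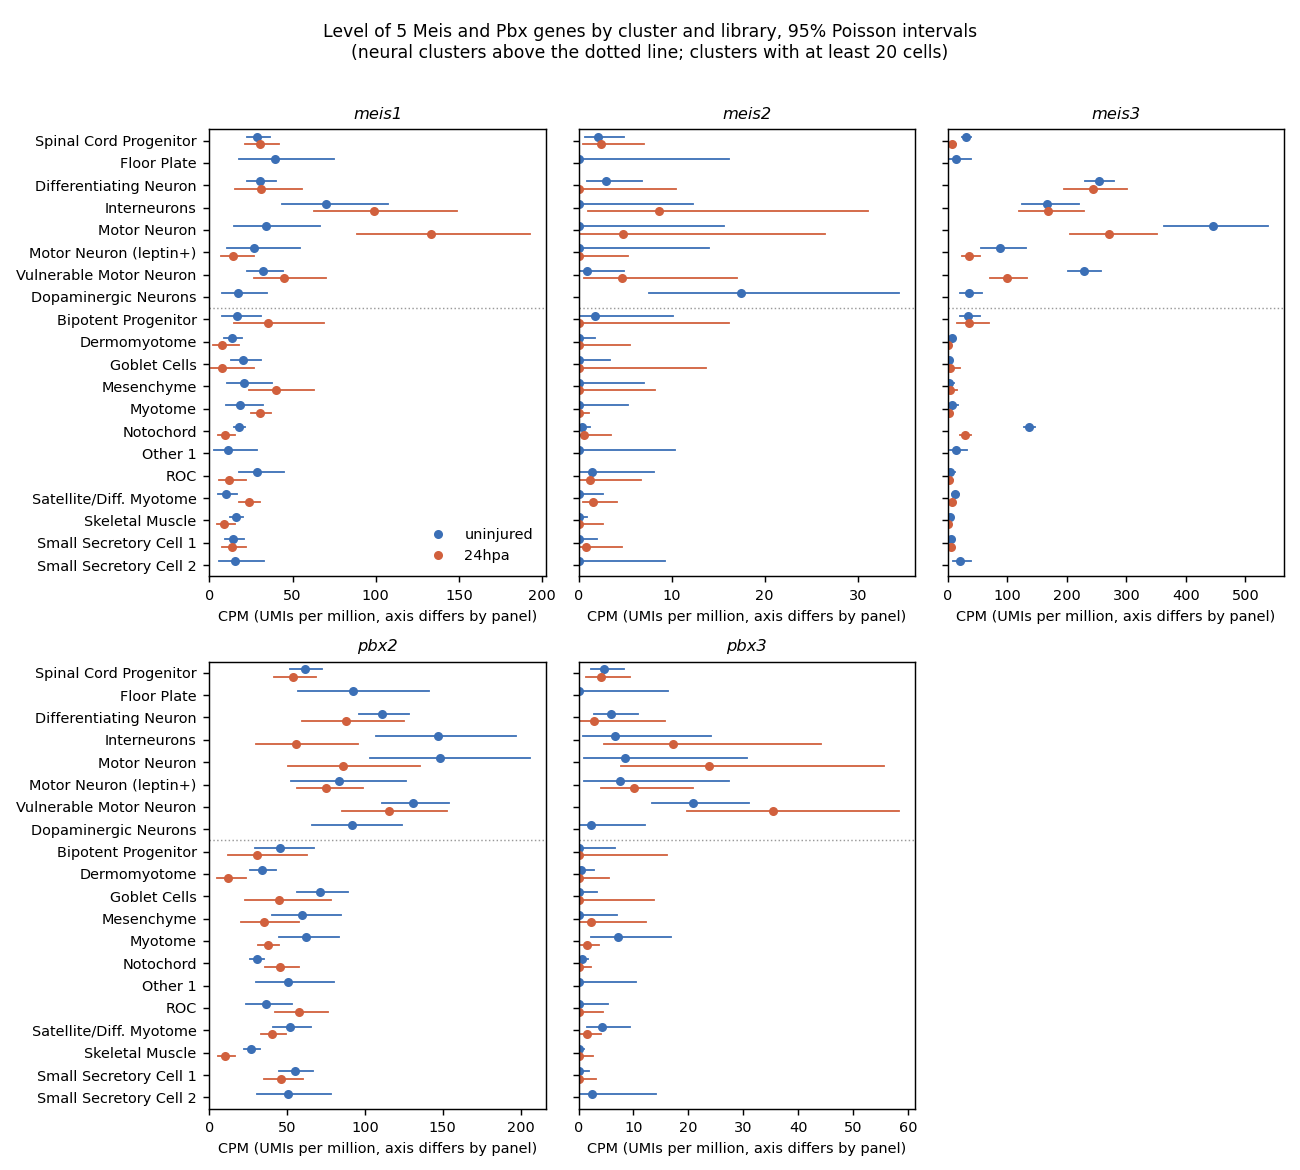
Level of each member in CPM (horizontal axis, which differs by panel) in each cluster with at least 20 cells, for the uninjured (blue) and 24hpa (orange) libraries. Points are CPM and lines are 95% Poisson intervals. *meis3* reached 445 CPM in the uninjured Motor Neuron cluster and 137 CPM in uninjured notochord, while *pbx3* was highest in the Vulnerable Motor Neuron cluster in both libraries.

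*meis3*, which in *Xenopus* embryos acts in posterior neural patterning, was the most abundant member in uninjured neural cells at 143 CPM (134 to 153). Its level differed widely between clusters. By the authors' broad classes it was at 29.0 CPM in cells classed NSC, 254 CPM in the Differentiating class and 190 CPM in the Neuron class of the uninjured library. The Motor Neuron cluster led with 445 CPM (364 to 539), and its interval lay above those of all other uninjured clusters. The Differentiating Neuron (254 CPM), Vulnerable Motor Neuron (228 CPM) and Interneurons (167 CPM) clusters came next, with neighbours in that order overlapping. The Motor Neuron (leptin+) cluster held 87.4 CPM (55.4 to 131) and Dopaminergic Neurons 35.0 CPM from 16 UMIs, with an interval overlapping that of progenitors. Spinal Cord Progenitor cells held 30.5 CPM (23.9 to 38.4) and the Floor Plate cluster 13.2 CPM (2.72 to 38.5). Outside the neural table the Notochord cluster held 137 CPM (128 to 147) from 817 UMIs, an interval that overlapped that of Interneurons, and no other cluster there exceeded 34.7 CPM. *meis3* was near 0 in the Goblet Cells cluster, where 1 of 157 cells carried its 2 UMIs at a median depth of 5584 UMIs, although free RNA of the uninjured library held *meis3* at 69.6 CPM.

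*meis1*, a Hox cofactor studied in limb and blood development, was spread more evenly. In uninjured neural cells it was at 31.4 CPM (27.3 to 35.9), close to 29.8 CPM in the NSC class, 30.6 CPM in the Differentiating class and 33.6 CPM in the Neuron class. The Interneurons cluster was highest at 70.2 CPM (43.4 to 107), above the intervals of 14 of 20 uninjured clusters. The lowest level was 10.1 CPM (5.52 to 16.9) in the Satellite Cells/Differentiating Myotome cluster. Between these ends the intervals of all neighbouring clusters overlapped. Free RNA held *meis1* at 21.3 CPM in the uninjured library and 20.6 CPM at 24hpa, within the range of the clusters outside the neural table.

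*meis2*, a close relative of *meis1*, was the rarest member: all uninjured cells together held 23 of its UMIs and all 24hpa cells 17. Of the uninjured UMIs, 8 fell in 6 of the 49 cells of the Dopaminergic Neurons cluster, at 17.5 CPM (7.55 to 34.4). This interval lay above those of 11 of 20 uninjured clusters. No *meis2* UMI was found in 412 uninjured skeletal muscle cells, which allows a share of up to 0.728% of cells with a UMI when 0 is given an upper limit of 3 counts, and none was found in the free RNA of either library.

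*pbx2*, which encodes a widely expressed partner of Hox and Meis proteins, was present in every cluster with at least 20 cells. In uninjured neural cells it was at 96.8 CPM (89.5 to 105), second to *meis3*. It was highest in the Motor Neuron cluster at 148 CPM (103 to 206), with Interneurons (147 CPM), Vulnerable Motor Neuron (131 CPM) and Differentiating Neuron (111 CPM) inside that interval. Each of these 4 clusters had an interval above those of 13 of 20 clusters. The lowest level was in skeletal muscle, with 26.9 CPM (22.1 to 32.5). At 24hpa the Vulnerable Motor Neuron cluster was highest at 116 CPM (85.5 to 153), with an interval above those of 11 of 16 clusters. Free RNA held *pbx2* at 52.7 CPM in the uninjured library and 45.0 CPM at 24hpa, within the range of the clusters outside the neural table.

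*pbx3*, a member of the same family with known roles in mouse hindbrain and spinal cord neurons, was rare. It was at 7.73 CPM (5.77 to 10.1) in uninjured neural cells and at 0.87 CPM (0.50 to 1.39) in uninjured cells outside the neural table. The Vulnerable Motor Neuron cluster was highest with 24 UMIs and 20.8 CPM (13.3 to 31.0), above the intervals of 13 of 20 clusters. At 24hpa this cluster again led with 15 UMIs and 35.4 CPM (19.8 to 58.4), followed by Motor Neuron with 5 UMIs and 23.8 CPM (7.73 to 55.5) and Interneurons with 4 UMIs and 17.2 CPM (4.69 to 44.1). Those intervals overlapped one another. Outside the neural table, uninjured Myotome held 5 UMIs and 7.20 CPM (2.34 to 16.8) and Satellite Cells/Differentiating Myotome 6 UMIs and 4.33 CPM (1.59 to 9.42), which overlapped the Differentiating Neuron (5.89 CPM) and Spinal Cord Progenitor (4.60 CPM) clusters. None of 412 uninjured skeletal muscle cells and none of 313 Small Secretory Cell 1 cells had a *pbx3* UMI, which by the same limit allows shares of up to 0.728% and 0.958%.

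Marker values are given here and below for some clusters, and the other cluster labels are used as deposited. In the Dopaminergic Neurons cluster, of *th*, *ddc*, *slc6a3* and *slc18a2* only *ddc* was matched in the files, at 509 CPM in the uninjured library. Genes of inhibitory and cerebrospinal fluid-contacting neurons summed to 5942 CPM there, with 4 of 5 matched genes detected. The label is therefore used here only as the deposited name. In the Floor Plate cluster, floor plate genes summed to 988 CPM and notochord genes to 5148 CPM. Both lists as drawn up include *shh*, and the notochord list also includes the collagen genes *col2a1* and *col9a1*. Neither sum is read as the identity of these cells. In the Motor Neuron cluster, motor neuron genes summed to 1258 CPM in the uninjured library with 3 of 4 matched genes detected, and to 424 CPM at 24hpa with 2 of 4 detected and *isl1* and *isl2* both at 0.

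The makeup of the family differed between clusters. Meis genes supplied 62.9% of the UMIs of the 5 members in uninjured neural cells (60.7 to 65.1, Clopper-Pearson) and 59.2% at 24hpa (55.5 to 62.9). Across uninjured neural clusters the Meis share ran from 36.4% in the Floor Plate cluster (20.4 to 54.9) to 75.3% in Motor Neuron (67.6 to 82.0). In Motor Neuron *meis1* supplied 5.33% in the uninjured library and 25.7% at 24hpa, and in Spinal Cord Progenitor cells *meis3* supplied 23.9% and 7.38%. *meis1* exceeded *meis3* in several clusters outside the neural table, as in 24hpa Mesenchyme (48.6% and 5.41%, beside 43.2% for *pbx2*) and 24hpa Myotome (42.4% and 3.03%). Over all cells outside the neural table the Meis share was 61.2% in the uninjured library (59.1 to 63.4) and 42.2% at 24hpa (38.9 to 45.7). The notochord differed most between the libraries, at 83.3% Meis in uninjured cells (81.0 to 85.5) and 46.3% at 24hpa (37.6 to 55.1).

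**Figure D2:**
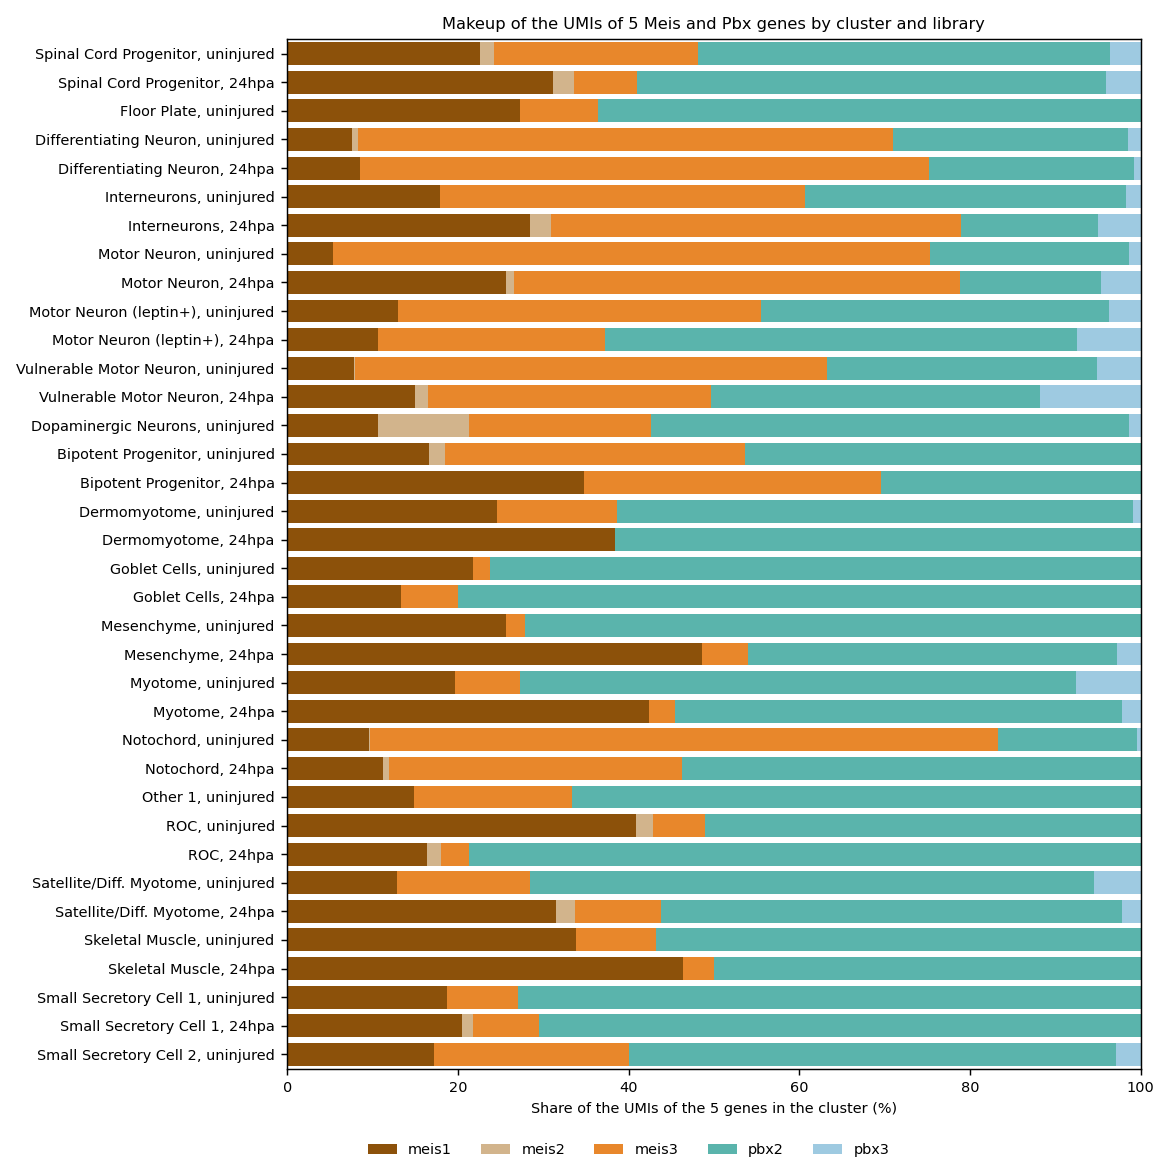
Share of the Meis and Pbx UMIs of a cluster (horizontal axis, percent) that came from each of the 5 members, for each cluster and library with at least 20 cells. Meis genes are brown to orange and Pbx genes green to blue. In notochord *meis3* supplied 73.6% of these UMIs before injury and 34.3% at 24hpa.

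Levels in 24hpa neural cells were then compared with those in uninjured neural cells. *meis3* differed most, at 143 CPM in the uninjured library and 80.5 CPM at 24hpa, a log2 ratio of -0.83 (-1.03 to -0.64). *pbx2* was also lower, with 96.8 and 74.3 CPM and a ratio of -0.38 (-0.60 to -0.17). *meis1* went the other way. It was at 31.4 CPM in the uninjured library and 41.0 CPM at 24hpa, a ratio of 0.39 (0.06 to 0.70). *pbx3* was at 7.73 and 11.3 CPM, and its interval included 0 (0.55, -0.10 to 1.19). *meis2* was at 2.83 and 3.06 CPM, also with an interval that included 0 (0.11, -1.15 to 1.29).

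None of the 5 members passed 2-fold in neural cells, where 17.6% of the 9501 genes with at least 20 UMIs did so. The intervals of 3 of 5 members excluded 0, against 50.3% of all genes, so this count is near the background. The median ratio of all genes was 0.09. Scaling by TMM, which resets library size from the bulk of genes, moved every neural ratio by -0.11 on the log2 scale. The *meis1* ratio was then 0.28 with an interval that included 0. The intervals of *meis3* (-0.94) and *pbx2* (-0.49) still lay below 0.

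In shares of cells, *meis1* was detected in 20.9% of neural cells before injury and 30.2% at 24hpa, a difference of 9.27 percentage points (3.48 to 15.4). *meis3* was found in 47.4% and 36.3%, a difference of -11.2 points (-17.5 to -4.54). *pbx3* was found in 6.15% and 10.5%, a difference of 4.35 points (0.79 to 8.64). The directions were the same for these members after every cell was thinned to 2600 UMIs, where the shares were 7.40% and 11.1% for *meis1*, 27.6% and 19.1% for *meis3*, and 1.94% and 3.71% for *pbx3*. *pbx2* was detected in 390 of 780 and 157 of 295 neural cells. The difference of 3.22 points had an interval that included 0 (-3.47 to 9.84) and was -2.21 points after thinning, so no order is read from it.

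**Figure D3:**
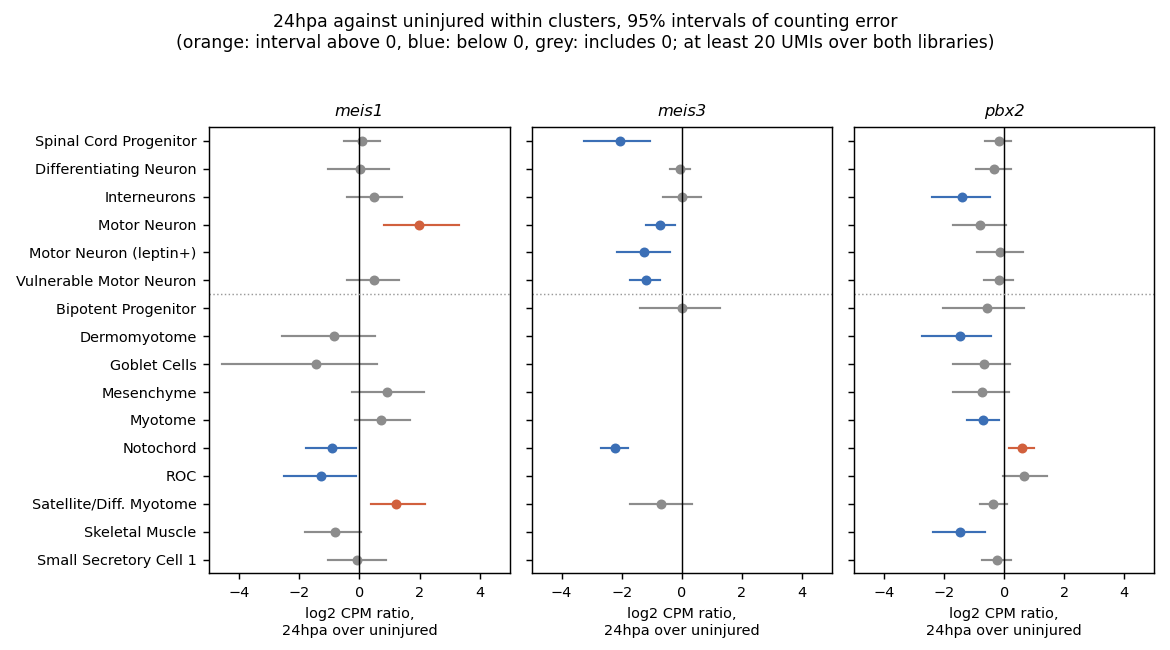
Log2 ratio of CPM at 24hpa over uninjured (horizontal axis) for *meis1*, *meis3* and *pbx2* within each cluster with at least 20 cells per library, shown where a gene had at least 20 UMIs over both libraries. Points are ratios and lines are 95% intervals of counting error. Intervals of *meis3* lay wholly below 0 in 4 neural clusters and in notochord, and *meis1* was at 1.98 in the Motor Neuron cluster.

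Within neural clusters the lower level of *meis3* was seen in the Spinal Cord Progenitor cluster and in the 3 clusters deposited under motor neuron names. In Spinal Cord Progenitor cells it was at 30.5 CPM (73 UMIs) in the uninjured library and 7.26 CPM (9 UMIs) at 24hpa, a ratio of -2.07 (-3.26 to -1.07). In the Vulnerable Motor Neuron cluster it was at 228 and 99.1 CPM, a ratio of -1.20 (-1.71 to -0.73). The Motor Neuron (leptin+) cluster had 87.4 and 36.2 CPM (-1.27, -2.15 to -0.39), and the Motor Neuron cluster 445 and 271 CPM (-0.71, -1.21 to -0.23). In that last cluster motor neuron genes also summed to 1258 and 424 CPM and excitatory interneuron genes to 102 and 462 CPM, and their part in the ratio was not tested. Intervals below 0 were thus found in 4 of 6 neural clusters, where 17.7%, 11.5%, 14.2% and 12.0% of genes in the same order had such intervals. Differentiating Neuron cells held 254 and 244 CPM, and Interneurons 167 and 168 CPM, with ratios of -0.06 (-0.41 to 0.28) and 0.01 (-0.64 to 0.64). With 24hpa clusters weighted to the uninjured makeup the ratio over neural cells was -0.47. Free RNA held *meis3* at 69.6 CPM in the uninjured library and 22.5 CPM at 24hpa. Free RNA was estimated at 9.42% of uninjured and 2.71% of 24hpa neural UMIs, and its part in these ratios was not tested.

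*meis1* was higher at 24hpa in the Motor Neuron cluster, with 8 UMIs in 52 uninjured cells (33.9 CPM, 14.6 to 66.8) and 28 UMIs in 33 24hpa cells (133 CPM, 88.6 to 193). The ratio was 1.98 (0.80 to 3.32), and 16.5% of genes in this cluster had intervals above 0. *meis1* was detected in 15.4% of these cells in the uninjured library and in 45.5% at 24hpa, with median depths of 4000.5 and 6174 UMIs. The same marker values move with this difference. The part of the cluster's makeup in the *meis1* ratio was not tested. The other 4 neural clusters with at least 20 *meis1* UMIs had ratios of 0.03 to 0.50, all with intervals that included 0.

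*meis1* over the authors' Neuron class as a whole was at 33.6 and 51.6 CPM, a ratio of 0.62 (0.16 to 1.08), where 27.7% of genes had intervals above 0. *pbx2* was lower in the Interneurons cluster, with 147 CPM (44 UMIs) and 56.0 CPM (13 UMIs) and a ratio of -1.39 (-2.41 to -0.48), and 11.0% of genes had intervals below 0 there. In the other 5 neural clusters *pbx2* ratios lay between -0.79 and -0.15, with intervals that included 0. Under TMM the interval of *pbx2* in Motor Neuron (-0.94) also lay below 0.

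The deposited AK_Names divide the neural cells differently, with joint names for differentiating neurons and interneurons and for vulnerable and leptin motor neurons. The joint clusters are not simple sums of Laevis clusters. Differentiating Neuron/Interneuron held 219 uninjured cells, against 155 Differentiating Neuron and 37 Interneurons cells under the Laevis names. *meis3* was lower at 24hpa in all 4 AK_Names neural clusters with at least 20 cells per library. Its ratios were -1.78 in Spinal Cord Progenitor, -1.43 in Vulnerable Motor Neuron/leptin Motor Neuron, -0.68 in Motor Neuron and -0.37 in Differentiating Neuron/Interneuron. The shares of all genes with intervals below 0 in these clusters were 18.6%, 16.4%, 12.1% and 14.8%. *pbx2* was lower in the last 3 of them, with ratios of -0.46, -0.87 and -0.49. Under the Laevis names the *pbx2* intervals in Motor Neuron, Vulnerable Motor Neuron and Motor Neuron (leptin+) had all included 0. The *pbx2* calls in Motor Neuron and in Vulnerable Motor Neuron/leptin Motor Neuron thus depended on which deposited name was used. The *meis3* call in Differentiating Neuron/Interneuron depended on the name too. Under the Laevis names the *meis3* intervals in Differentiating Neuron and in Interneurons had both included 0. In the joined Differentiating Neuron/Interneuron cluster *meis1* was at 35.0 and 58.5 CPM (0.74, 0.13 to 1.33), where 18.9% of genes had intervals above 0, although under TMM (0.60) the interval included 0. In the Laevis clusters Differentiating Neuron and Interneurons the *meis1* intervals had both included 0. These 2 clusters held 155 and 37 uninjured cells, and 31 and 27 cells at 24hpa. Vulnerable Motor Neuron and Motor Neuron (leptin+) held 164 and 27 uninjured cells, and 56 and 68 at 24hpa. The part of this makeup in the joint ratios was not tested.

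Outside the neural table the notochord carried the clearest difference. *meis3* was at 137 CPM (817 UMIs in 291 cells) in uninjured notochord and 29.2 CPM (46 UMIs in 63 cells) at 24hpa, a ratio of -2.23 (-2.69 to -1.80), where 19.3% of genes had intervals below 0. It was detected in 77.3% of uninjured and 38.1% of 24hpa notochord cells at median depths of 19115 and 18882 UMIs. *meis1* was also lower in notochord, with 17.8 and 9.52 CPM (-0.90, -1.79 to -0.12). *pbx2* was at 30.4 and 45.7 CPM (0.59, 0.17 to 0.99), where 25.3% of genes had intervals above 0, although under TMM (0.40) the interval included 0. Notochord genes in this cluster summed to 33319 CPM in the uninjured library and 22147 CPM at 24hpa, with 3 of 3 matched genes detected in each. Matched genes of the list used for epidermis (*krt8*, *krt18*, *cdh1*, *epcam* and *tp63*) summed to 10630 and 33766 CPM. That sum is not read as an epidermal identity of these cells. The part of either marker sum in the member ratios was not tested. Over all cells outside the neural table *meis3* was at 47.0 and 7.33 CPM, a ratio of -2.68 (-3.00 to -2.37), and was the 1 member of the 4 with at least 20 UMIs that passed 2-fold, as 21.8% of genes did. Notochord carried 817 of the 924 uninjured *meis3* UMIs and 46 of the 94 at 24hpa, and was 291 of 1837 and 63 of 795 of these cells, so 1 cluster carried most of the uninjured UMIs and its share of cells differed between the libraries. In the other 2 outside clusters with at least 20 *meis3* UMIs the intervals included 0.

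In muscle-lineage and other clusters the direction differed by cluster. *meis1* was higher at 24hpa in the Satellite Cells/Differentiating Myotome cluster, with 10.1 CPM (14 UMIs) and 23.7 CPM (59 UMIs), a ratio of 1.23 (0.37 to 2.18) where 16.3% of genes had intervals above 0. It was lower in the ROC cluster, with 28.9 and 12.0 CPM (-1.27, -2.53 to -0.11), where 24.6% of genes had intervals below 0.

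*pbx2* was lower at 24hpa in 3 of 10 clusters outside the neural table and higher in 1, the notochord. In skeletal muscle it was at 26.9 CPM (109 UMIs in 412 cells) and 9.82 CPM (14 UMIs in 59 cells), a ratio of -1.46 (-2.37 to -0.65), where 40.0% of genes had intervals below 0 and the median ratio of all genes was -0.52. In Dermomyotome it was at 33.9 CPM (69 UMIs in 143 cells) and 12.1 CPM (8 UMIs in 27 cells), a ratio of -1.48 (-2.75 to -0.42). There 36.8% of genes had intervals below 0 and the median was -0.62. Of these 24hpa cells, 1 alone held 165099 UMIs, and its part in the ratio was not tested. In Myotome *pbx2* was at 61.9 and 37.8 CPM (-0.71, -1.23 to -0.18), beside 21.1% of genes. Under TMM the Dermomyotome (-1.04) and Myotome (-0.52) intervals included 0. In skeletal muscle the mean of CPM per cell gave a ratio of only -0.21.

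Meis and Pbx proteins act as partners, so their transcripts were also counted in the same cell. Of 780 uninjured neural cells, 282 had UMIs of at least 1 of the Meis and at least 1 of the Pbx genes described (36.2%, 32.8 to 39.6), as did 105 of 295 at 24hpa (35.6%, 30.1 to 41.4). The difference of -0.56 percentage points had an interval that included 0 (-6.83 to 5.95), and it was 3.35 points with the Motor Neuron (leptin+) cells set aside. After thinning to 2600 UMIs the shares were 9.53% and 6.84%. Among uninjured neural cells with a Meis UMI, 62.0% had a Pbx UMI, against 38.5% of those with none. At 24hpa the shares were 65.2% and 50.7%.

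Depth and cluster moved with these shares. Median depth in the uninjured library was 8636.5 UMIs for cells with both, against 7353 for all neural cells. The product of the Meis and Pbx shares within each cluster gave 252 cells with both in the uninjured library and 93.5 at 24hpa, below the counts found. When each cell was taken to draw UMIs in proportion to its own total at its cluster's level, 299.7 and 107 cells were expected, above the counts found. That expectation takes UMIs as independent and does not keep the share of cells found with each gene. UMIs of a gene gathered in few cells would also bring the count below it, so nothing about pairing is read from that gap. Cluster by cluster the product of shares lay inside the interval of the share found in 20 of 20 uninjured and 16 of 16 24hpa clusters. The depth expectation likewise lay inside it in 20 of 20 and 16 of 16 clusters. The share found was above the product of shares in 17 of 20 uninjured and 13 of 16 24hpa clusters. It was above the depth expectation in 5 of 20 and 6 of 16. The intervals of single clusters are wide, so they do not settle this lean.

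**Figure D4:**
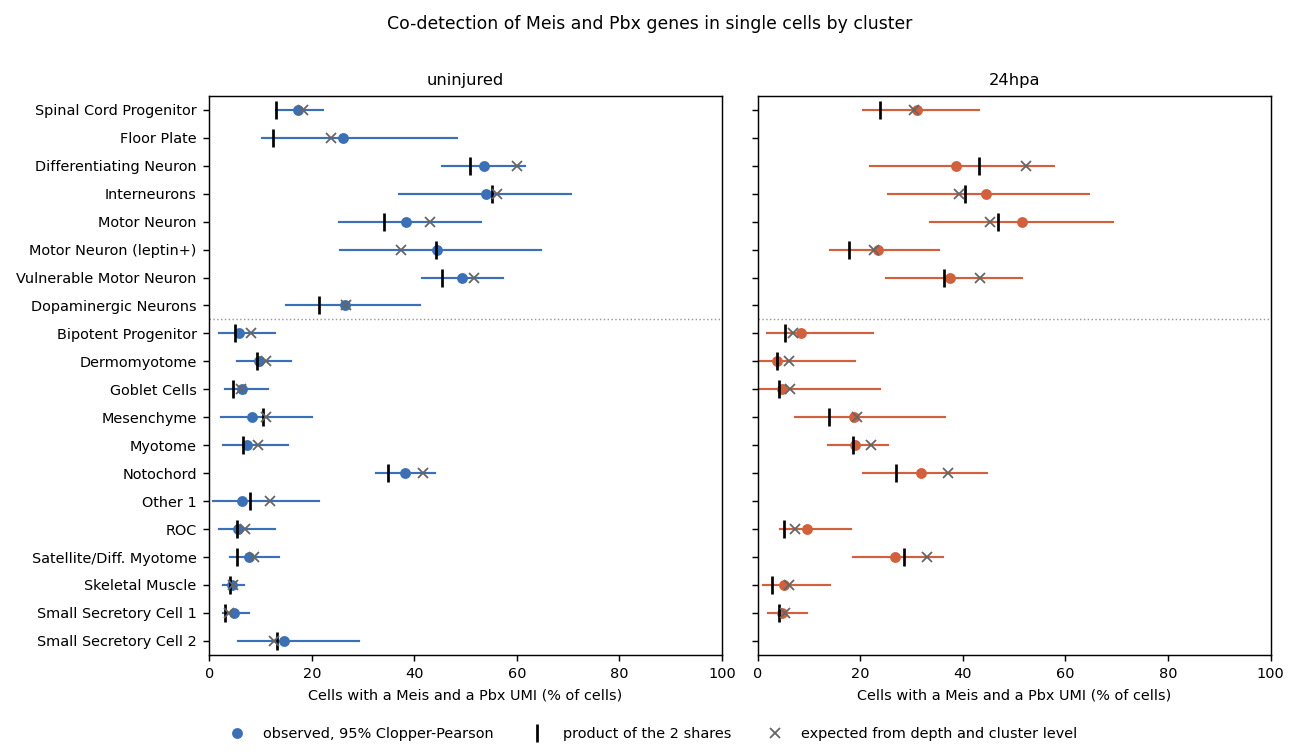
Share of cells with a Meis and a Pbx UMI (horizontal axis, percent of cells) in each cluster with at least 20 cells, for the uninjured (left) and 24hpa (right) libraries. Points are shares with 95% Clopper-Pearson intervals, bars the product of the Meis and Pbx shares, and crosses the share expected from depth and cluster level. Shares ran from 4.37% to 54.1% in uninjured clusters and from 3.70% to 51.5% at 24hpa, and every bar and cross lay inside its interval.

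Without thinning, co-detection was frequent in several neuron clusters, though not in all, and in notochord. In the uninjured library it was found in 54.1% of Interneurons (36.9 to 70.5), 53.5% of Differentiating Neuron cells (45.4 to 61.6), 49.4% of Vulnerable Motor Neuron cells (41.5 to 57.3), 38.5% of Motor Neuron cells (25.3 to 53.0) and 38.1% of notochord cells (32.5 to 44.0). The intervals of neighbours in this list overlapped. Spinal Cord Progenitor cells were at 17.2% (12.9 to 22.2) and skeletal muscle at 4.37% (2.61 to 6.82). At 24hpa the Vulnerable Motor Neuron cluster was at 37.5% (24.9 to 51.5) and the Motor Neuron cluster at 51.5% (33.5 to 69.2). In Spinal Cord Progenitor cells the share was 31.0% at 24hpa, where median depth was 14090 UMIs against 7739 in the uninjured library, and after thinning the shares were 2.42% in the uninjured library and 1.42% at 24hpa. Of 49 uninjured Dopaminergic Neurons cells, 16 had none of the 5 members and 20 had only 1. Of 68 24hpa Motor Neuron (leptin+) cells, 24 had none and 26 had only 1. After thinning, *meis3* and *pbx2* were found in 28.3% and 7.87% of uninjured notochord cells. In uninjured Motor Neuron cells these shares were 66.6% and 30.3%.

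Of the 6 Meis and Pbx pairs, *meis3* with *pbx2* was the most frequent, in 224 uninjured (28.7%) and 60 24hpa (20.3%) neural cells. *meis1* with *pbx2* was found in 105 and 55 cells. The pair the study singled out, *meis1* with *pbx3*, was found in 14 uninjured and 12 24hpa cells, where depth and cluster level gave 13.2 and 13.0. *meis2* and *pbx3* were never found together. In each library 5 of 6 pairs lay above the product of their shares and 2 of 6 above the depth expectation. The limit of the depth expectation given above holds for these pairs too.

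Across the 14 neural clusters and libraries with at least 20 cells, the members varied together only in part. The points share libraries and depth, and the correlations of log2(CPM + 10) are descriptions. The highest Pearson r among member pairs was 0.58 for *meis3* and *pbx2*, followed by 0.48 for *meis1* and *pbx3*, and the r of *meis1* and *pbx2* was 0.01. Of 6699 genes compared, those most like *meis3* were *nova2* (0.92), *ebf2* (0.91) and *timm10* (0.90), and those most like *meis1* were *htr5a* (0.88), *cpne5* (0.87) and *ing1* (0.80). Most like *pbx3* were *cd81* (0.89), *neto1-like* (0.89) and *c11orf87* (0.88). For *pbx2* they were *plaa* (0.84), *ube2g2* (0.82) and *me3* (0.81). *pbx3* had only 89 UMIs in neural cells of both libraries, so its r values rest on few counts. The genes named are the highest of 6699 over only 14 points. How high r would run among unrelated genes was not tested.

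By the deposited cell cycle phases, uninjured neural cells called G1 held *meis3* at 229 CPM (212 to 246), those called S at 58.9 CPM (49.4 to 69.6) and those called G2M at 92.9 CPM (77.2 to 111). *meis1* was at 31.5, 30.1 and 33.5 CPM in these phases. In 24hpa neural cells *meis3* was at 119, 21.1 and 7.19 CPM, the last from 3 UMIs. Phase moves with cluster, since most Spinal Cord Progenitor cells were called S or G2M, and no cycling is read from these calls. Within uninjured Spinal Cord Progenitor cells *meis3* was at 56.3 CPM in G1 (22.6 to 116), from 7 UMIs. It was at 25.9 CPM in S (18.6 to 35.1) and 36.6 CPM in G2M (23.7 to 54.1), and these intervals overlapped.

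Partner and related gene lists were compared in neural cells in the same way. Of 29 Hox genes, which encode the homeodomain proteins that Meis and Pbx bind, 26 had at least 20 UMIs, and none was 2-fold higher and 9 were 2-fold lower at 24hpa, beside 8.76% higher and 8.88% lower among all genes. Their median ratio was -0.72. With the Motor Neuron (leptin+) cells set aside, 6 were lower and the median was -0.56. The clusters differed: the median was -1.02 in Motor Neuron (leptin+), -0.81 in Interneurons, -0.77 in Spinal Cord Progenitor, -0.52 in Differentiating Neuron and -0.45 in Vulnerable Motor Neuron. It was -0.02 in Motor Neuron, where 15 Hox genes had at least 20 UMIs and 1 was 2-fold higher and 1 lower. Examples were *hoxc10*, with 359 and 160 CPM (-1.17, -1.31 to -1.03), and *hoxa13*, with 143 and 62.1 CPM (-1.21, -1.43 to -0.99), both posterior genes of their clusters. The others past 2-fold were *hoxa11*, *hoxd10*, *hoxb7*, *hoxc6*, *hoxa5*, *hoxb5* and *hoxa4*, with ratios of -1.50 to -1.04.

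Of 13 other TALE and interacting genes, 8 were matched and 7 had at least 20 UMIs, with a median ratio of -0.93. Of these 7, 1 was 2-fold higher and 3 were 2-fold lower, beside 8.76% higher and 8.88% lower among all genes. With the Motor Neuron (leptin+) cells set aside, 6 had at least 20 UMIs, of which 0 were 2-fold higher and 4 were lower. *irx3*, a spinal cord patterning factor, was at 46.4 and 16.8 CPM (-1.46, -1.90 to -1.05). *irx2* had 19 and 3 UMIs (-1.62, -4.02 to 0.14) and *tgif2* 26 and 1 (-3.66, -9.02 to -1.05). *pknox2*, a close relative of Meis genes, had 9 and 11 UMIs (1.33, -0.08 to 2.78).

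Of 18 retinoic acid pathway genes, 12 were matched and 5 had at least 20 UMIs, of which 2 were 2-fold higher and 1 was 2-fold lower, with a median of 0.26, beside 8.76% higher and 8.88% lower among all genes. The genes that were higher act in retinoid handling: *dhrs3*, a retinaldehyde reductase, was at 4.31 and 19.6 CPM (2.18, 1.53 to 2.87), and *rdh10*, a retinol dehydrogenase, at 7.73 and 19.9 CPM (1.36, 0.81 to 1.92). *crabp2*, which carries retinoic acid to its receptors, was at 223 and 39.5 CPM (-2.50, -2.77 to -2.24). Of the other genes of the predicted circuit, *runx2* had 24 and 32 UMIs (1.46, 0.65 to 2.28), and *etv1* 378 and 101 UMIs with a ratio of -0.86. Like *meis1* and *pbx3*, these were chosen by the study in part on the same cells.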

How the data were processed

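GFP+ tail cells from 1 uninjured and 1 24hpa library were measured with 10x Genomics 3′ version 2 chemistry. Deposited files gave unnormalized UMI counts for each gene in each of 737280 barcodes per library, as the authors obtained them from Cell Ranger. The build of the single-cell counts is uncertain: the submitters' notes name a zebrafish assembly while gene identifiers are those of *Xenopus tropicalis*, so no coordinates or sequences are given. The authors' deposited cell tables supplied the list of cells and their cluster, class and phase, and 26 of their columns were not used.

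For each set of cells, UMI counts were added up within a library. CPM have exact Poisson intervals, shares exact Clopper-Pearson intervals, share differences Newcombe intervals and log2 ratios exact conditional intervals, all at 95%, and a share of 0 is given with the limit of 3 counts over its cells. With 1 library per group no test was made and no p-value computed. Ratios were taken with at least 20 cells per library and at least 20 UMIs over both libraries. Of the 14374 genes listed, 12993 had a name.

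Free RNA was estimated from barcodes with 1 to 100 UMIs that were not called cells. Its share of neural UMIs was estimated from genes of other cell types. Scrublet, run in scanpy 1.11.5, marked 8 uninjured and 4 24hpa cells as doublets (0.306% and 0.367%), too few to be taken as working, so leaving out the 5% of cells with the highest scores was added after seeing the data. Alternatives also included TMM (edgeR 4.0.16, R 4.3.3), the mean of CPM per cell, cells with at least 1000 genes and thinning to 2600 or 5000 UMIs. Other steps used Python 3.11.15, numpy 2.4.6, scipy 1.17.1 and pandas 2.3.3. Ratios and thinning were tested on simulated data, and the counts for the ratios were drawn with counting error alone.

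The members, gene lists and tests were chosen with earlier results of these data known. The 5 members are named, as are *etv1*, *runx2* and genes of the other lists past 2-fold in neural cells. For each member with at least 100 UMIs over all cells, the 3 genes most correlated with it are also named. Some genes are not reported here and were left out of the lists and sums.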

Additional observations from a re-analysis of the deposited data

Results flagged for a closer look

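Some members moved in opposite directions between clusters, with intervals that excluded 0 on both sides. These differences compare 1 library with another in each cluster and were not tested over samples. Such intervals were common within single clusters. They lay above 0 for 16.5% of genes in Motor Neuron, 16.3% in Satellite Cells/Differentiating Myotome and 25.3% in Notochord. They lay below 0 for 19.3% in Notochord, 24.6% in ROC, 11.0% in Interneurons, 36.8% in Dermomyotome, 21.1% in Myotome and 40.0% in Skeletal Muscle. The share of all genes with opposite calls was not counted. For *meis1*, the log2 ratio of 24hpa over uninjured was higher in Motor Neuron than in Notochord (Notochord minus Motor Neuron, -2.88) and than in ROC (ROC minus Motor Neuron, -3.24). It was also higher in Satellite Cells/Differentiating Myotome than in Notochord, by 2.13, and than in ROC, by 2.50. For *pbx2*, the ratio was higher in Notochord than in Interneurons by 1.98, than in Dermomyotome by 2.07 and than in Myotome by 1.30. The same gene gave a ratio in Skeletal Muscle minus that in Notochord of -2.04. All of these *pbx2* differences share Notochord, whose interval included 0 under TMM, as did those in Dermomyotome and Myotome. Under TMM none of these *pbx2* pairs thus had opposite calls. Median ratios of all genes were 0.11 in Notochord, 0.12 in Interneurons, -0.62 in Dermomyotome, -0.09 in Myotome and -0.52 in Skeletal Muscle. The differences were not corrected for them.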

How the results depend on the processing

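No paired analysis was possible because each group has 1 library. Of 191 alternative values, 188 kept their direction or stayed within counting error, and 3 moved. A call can change while its value stays within counting error, so this count does not cover calls. Under TMM interval calls changed for *meis1* over neural cells and in Differentiating Neuron/Interneuron. They also changed for *pbx2* in Notochord, Dermomyotome, Myotome and the Laevis Motor Neuron cluster. The *meis3* ratio over neural cells was -0.83, and was -0.58 when CPM was averaged over cells and -0.47 when 24hpa clusters were weighted to the uninjured makeup. The *pbx2* ratio in Skeletal Muscle was -1.46, and -0.21 when CPM was averaged over cells. The cause was not tested. Leaving out the Motor Neuron (leptin+) cluster brought the *meis1* ratio over neural cells to 0.61. Genes past 2-fold in neural cells numbered 1676, with 1164 at a minimum of 50 UMIs, 2319 with no filter, 1663 under TMM and 1392 without the Motor Neuron (leptin+) cluster. Depth limits *meis2* and *pbx3* most, with 29 and 89 UMIs in neural cells of both libraries, so differences between clusters for these genes were mostly not detectable.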
